A study of Mus musculus with 37 samples.

Results

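The nuclear-encoded genes of the mitochondrial respiratory chain and ATP synthase were followed in brown adipose tissue (BAT) across the BXD strains. Members were taken by gene symbol: names starting with *Ndufa*, *Ndufb*, *Ndufc*, *Ndufs*, *Ndufv*, *Uqcr*, *Atp5*, *Cox4i*, *Cox5*, *Cox6*, *Cox7* or *Cox8*, plus the 4 succinate dehydrogenase genes, without *Cox7a1* and *Cox8b*. This gave 86 genes of the 24657 symbols in the table, each read from its probe set with the highest mean over the BXD strains. By name, 37 belong to complex I, 4 are complex I assembly factors (*Ndufaf1* to *Ndufaf4*), 4 belong to complex II, 8 to complex III, 15 to complex IV and 17 to complex V, and *Cox7a2l* was kept apart as a supercomplex factor. The classes follow the names, so that *Ndufa4*, a protein now placed in complex IV, counts under complex I, and *Atp5s* and *Atp5sl*, which RefSeq now calls *Dmac2l* and *Dmac2*, count under complex V.

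The respiratory chain sits in the inner mitochondrial membrane. Complexes I and II pass electrons from NADH and succinate to ubiquinone, complex III passes them to cytochrome c, complex IV hands them to oxygen, and complex V uses the proton gradient to make ATP. In brown fat, UCP1 lets protons back in without ATP synthesis, so that respiration makes heat. Most subunits are encoded in the nucleus, several complex IV subunits exist in tissue-restricted isoforms, and a few core subunits are encoded by mitochondrial DNA and made on mitochondrial ribosomes.

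The samples were BAT from male mice on chow, fasted overnight and labelled as 29 weeks old: 35 BXD strains, which are recombinant inbred lines of C57BL/6J and DBA/2J, and the 2 parents. RNA from about 5 mice per strain was pooled for 1 Affymetrix gene array, so there is no replicate within a strain, and the spread between strains holds the error of a single array as well as strain differences. The values were rescaled by the authors to a mean of 8 and an SD of 2 on each array, and the log base is not stated, so differences are given in these rescaled units. Levels are compared only within a gene. The parents have 1 array each and are described without a test.

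As a check of the tissue, *Ucp1* lay between 14.8 and 15.7 and *Cidea*, a brown fat marker, between 14.4 and 14.9, and all 7 measured genes of the brown fat list stood above the background, which was set at the 95th percentile of 1128 olfactory receptor probe sets (7.94). Transcripts typical of other tissues were also present, and which cells they came from was not tested. The mean of 13 skeletal muscle genes ran from 9.99 in BXD65 to 13.5 in BXD97, and the mean of 5 white fat genes from 9.65 in BXD90 to 11.5 in BXD61. The mean of 7 liver genes had a BXD median of 6.96 but reached 12.5 in BXD70 and 10.4 in DBA/2J. In bulk tissue, fewer cells of a type and less RNA per cell cannot be told apart.

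Most members varied little between strains. The range, taken from the lowest to the highest BXD strain, had a median of 0.593 units over the 86 members. It was 0.828 over the 19436 transcripts above background. A range of at least 1 unit was found for 6 members, against 40.8% of all transcripts and 35.2% of those above background. Brightness moves with this count: of the members, 42 had a mean of at least 12, with a median range of 0.475, and the 1363 other transcripts as bright had a median range of 0.750. The part of scanner or probe saturation was not tested. Of the members, 81 had a mean above background, and the other 5 were *Cox7b2*, *Cox8c*, *Atp5j2*, *Cox5b* and *Atp5g1*.

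**Figure D1:**
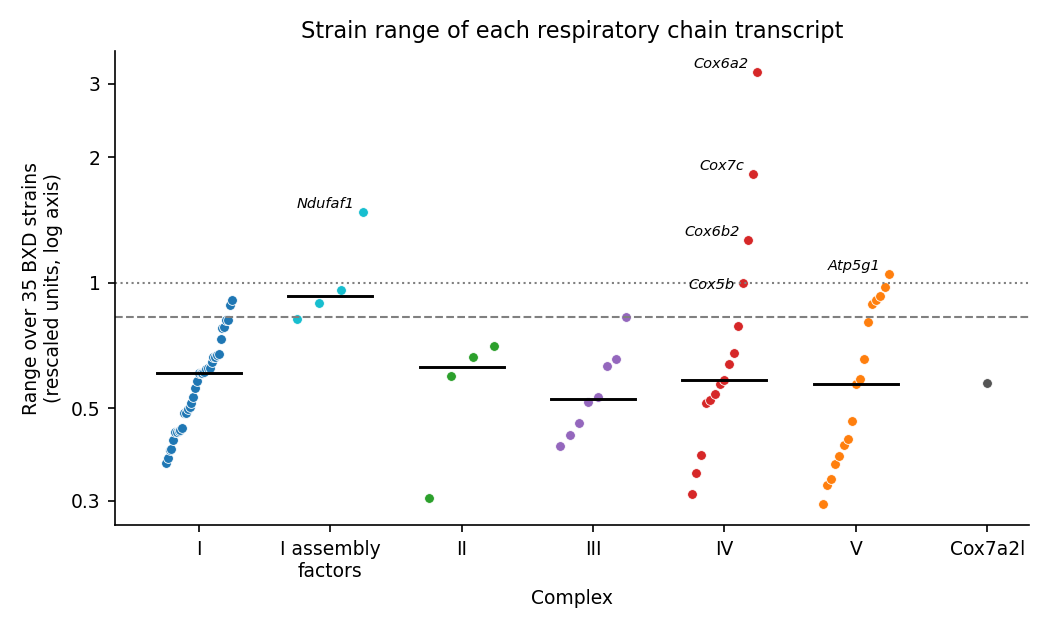
Range over the 35 BXD strains (rescaled units, log axis) of each of the 86 members, by complex, with 1 point per gene, a bar at the median of each class, a dotted line at 1 unit and a dashed line at the median of transcripts above background (0.828). The class medians of complexes I to V sit between 0.526 and 0.630, and *Cox6a2* (3.20) and *Cox7c* (1.82) stand highest.

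By complex, the median range was 0.606 for complex I, 0.630 for complex II, 0.526 for complex III, 0.583 for complex IV and 0.573 for complex V. The 4 complex I assembly factors had a higher median, 0.930, and none of them lay under 0.819. The 5 smallest ranges belonged to *Atp5b* (the catalytic beta subunit of ATP synthase, 0.295), *Sdha* (the flavoprotein of complex II, 0.305), *Cox6c* (0.311), *Atp5g2* (a c-ring gene, 0.327) and *Atp5h* (0.339). The last 3 rest on probe sets listed among genes of another chromosome, so their places are uncertain. The probe sets on the genes' own chromosomes ranged by 0.485 for *Cox6c*, 0.312 for *Atp5g2* and 1.38 for *Atp5h*. *Atp5b* read 15.634 in the lowest strain, 15.753 at the median and 15.929 in the highest. C57BL/6J (15.678) and DBA/2J (15.719) fell within that span. The 5 largest ranges belonged to *Cox6a2* (3.20), *Cox7c* (1.82), *Ndufaf1* (1.48), *Cox6b2* (1.27) and *Atp5g1* (1.05), and *Cox5b* reached exactly 1 unit.

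Without the highest and the lowest strain of each gene, 2 members, *Cox6a2* and *Cox7c*, had a range of at least 1 unit. For *Atp5g1* and *Cox5b* the values straddled the background, with 5 and 8 of 35 strains above it.

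Among the core subunits of complex I, some of which carry the flavin or iron-sulfur clusters, *Ndufv1* ranged by 0.397, *Ndufv2* by 0.442, *Ndufs7* by 0.443, *Ndufs3* by 0.487 and *Ndufs1* by 0.488. *Ndufs8*, which binds 2 of the iron-sulfur clusters, was wider at 0.785, from 12.958 in BXD80 through a median of 13.428 to 13.743 in BXD51. In complex II, *Sdha* was followed by the iron-sulfur subunit *Sdhb* (0.596) and by the membrane anchors *Sdhd* (0.663) and *Sdhc* (0.704). The lowest strain was BXD97 for *Sdha* and *Sdhb*, BXD84 for *Sdhc* and BXD80 for *Sdhd*.

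The complexes moved together over the strains. Each complex was summarised as the mean deviation of its members from their BXD means. The mean of complex I ran from -0.15 in BXD61 to 0.12 in BXD101, that of complex II from -0.20 in BXD97 to 0.16 in BXD101, and that of complex III from -0.21 in BXD97 to 0.14 in BXD101. Complex V ran from -0.12 in BXD61 to 0.14 in BXD101. BXD101 was therefore the highest strain for each of these complexes, while BXD61 or BXD97 was the lowest. BXD61 also had the highest white fat list (11.5) and the highest macrophage list (11.3) of the BXD strains, and BXD97 the highest muscle list (13.5) and the lowest brown fat list (12.2). Over the strains, complex I had r = -0.60 (rho = -0.61) with the white fat list and -0.38 (rho = -0.40) with the muscle list, and complex IV without its restricted isoforms had r = -0.66 (rho = -0.62) and -0.45 (rho = -0.56). The part of tissue makeup in the shared movement was not tested.

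Over the 35 strains, the mean of complex I followed that of complex III with r = 0.92 (rho = 0.90), complex II with r = 0.85 (rho = 0.87) and complex V with r = 0.80 (rho = 0.81). Without the 2 strains farthest from the median these values were 0.89, 0.85 and 0.81. The points of these correlations share arrays, and an array-wide shift would move all complexes at once. They are given as descriptions. Between single genes the relation was looser. These pairs left out the restricted isoforms (*Ndufa4l2* among them), the assembly factors and *Cox7a2l*. The median r was 0.23 over 845 pairs within a complex and 0.24 over 1930 pairs from different complexes, with 81.2% and 82.1% of pairs above 0. Over all 3655 member pairs the median r was 0.20, with 76.9% above 0. Over all pairs of transcripts above background 49.9% were above 0. Pairs within complex III had a median r of 0.32, and pairs within complex V one of 0.11.

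Complex IV stood apart in this summary until its restricted isoforms were set aside. With all 15 members, its mean followed complex I with r = 0.40 (rho = 0.44), and it was lowest in BXD85. With the 5 restricted isoforms of complex IV left out, a choice made after the data were seen, r was 0.76 (rho = 0.74), the lowest strain was BXD61 (-0.22) and the highest BXD101 (0.14). With the muscle list regressed out of every transcript and all 15 members kept, r was 0.65.

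**Figure D2:**
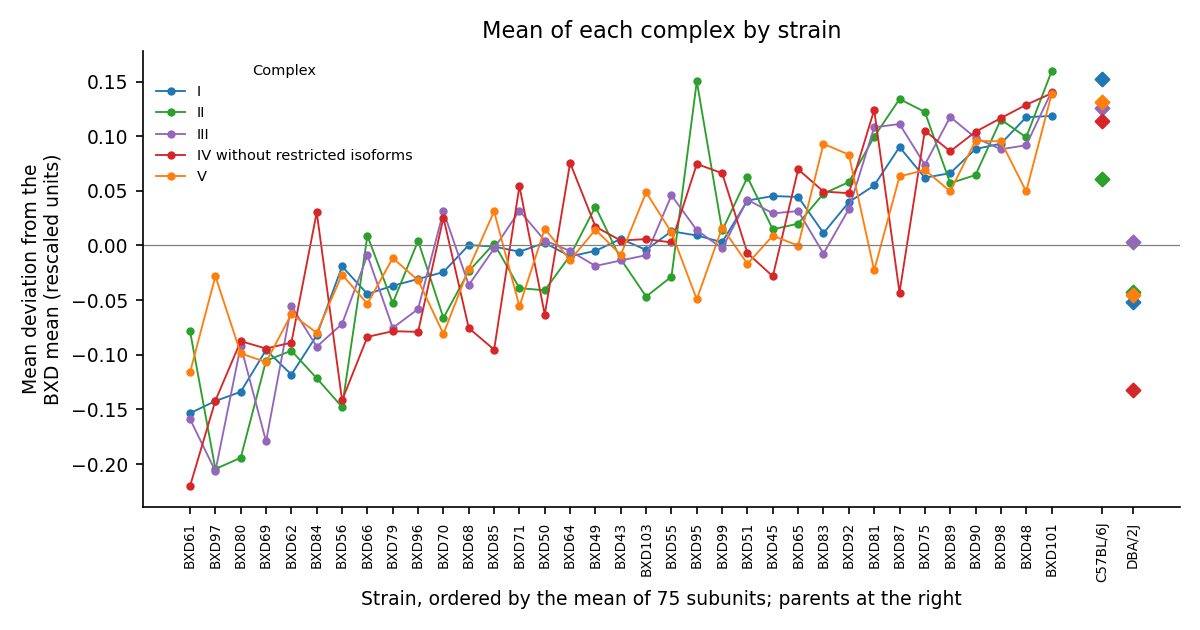
Mean deviation from the BXD mean (rescaled units) of complexes I, II, III, IV without the 5 restricted isoforms, and V in each of the 35 BXD strains, ordered by the mean of the 75 members that remain in complexes I to V without such isoforms, with the parents as diamonds at the right. All 5 lines rise from left to right, BXD101 is the highest BXD strain of each, and C57BL/6J lies above DBA/2J in each complex.

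Some members did not follow the rest. Each gene was correlated with the mean of the 75 subunits of complexes I to V without restricted isoforms, itself left out. This correlation was lowest for *Cox6a2* (r = -0.38), and it lay between -0.08 and 0.03 for *Ndufa4l2*, *Cox8c*, *Atp5g1*, *Atp5k*, *Cox6b2* and *Atp5g3*. It was highest for *Ndufb5* (0.83), *Sdhd* (0.81), *Ndufb8* (0.80), *Cox6b1* (0.77) and *Ndufv3* (0.74). Of these genes, *Cox8c* and *Atp5g1* have means under the background. The transcripts of the mitochondrial genome, 11 of which are listed, were mostly flat, with a median range of 0.314. *ND6* was the exception, with a range of 1.71. The mean of the 11 followed complex I with r = -0.11 (rho = -0.13). Those 11 were picked after their values were seen, and 10 of them have means above 15, at the top of the scale.

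The isoform pairs of complex IV differed in how far they varied. *Cox6a2* encodes the form of subunit VIa found in heart and skeletal muscle, and *Cox6a1* the form found in most tissues. *Cox6a2* read 9.771 in BXD85, 12.150 at the median and 12.970 in BXD69, with 12.630 in C57BL/6J and 11.992 in DBA/2J. *Cox6a1* stayed between 15.5 and 15.9, with a median of 15.7. *Cox6a2* was the only member called against the skeletal muscle list, at 0.86 ± 0.04 units per SD of the list mean (SE, n = 35 strains, limma, adjusted p = 4.8e-20 over all transcripts). Against that list 1.5% of all transcripts were called higher and 0.311% lower, and no member was called lower. The correlation of *Cox6a2* with the list was r = 0.97 (rho = 0.93), and 0.97 without the 2 strains farthest from the median. With the muscle list regressed out, its range fell from 3.20 to 1.03. The named transcripts most like *Cox6a2*, looked up after its values were seen, were *Rtn2*, *Myot*, *Ldb3*, *Myoz2* and *Sgca*, with r between 0.97 and 0.98 over 35 strains. *Myot*, *Ldb3* and *Myoz2* encode Z-disc proteins and *Sgca* a sarcoglycan of striated muscle. The slope of *Cox6a1* was -0.02 ± 0.02 (limma, adjusted p = 0.732).

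**Figure D3:**
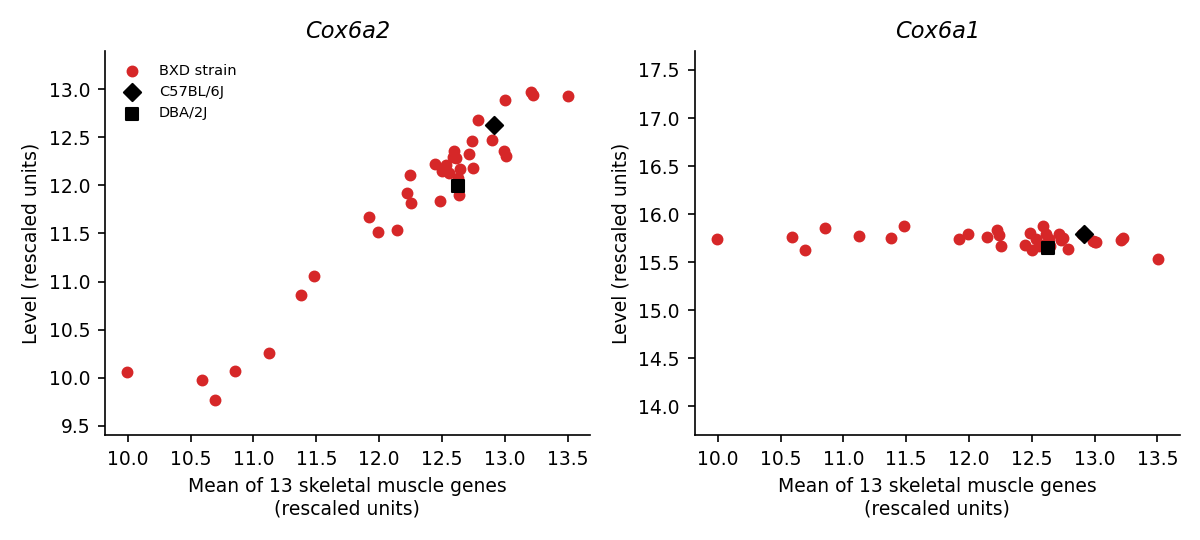
Level (rescaled units) of *Cox6a2* (left) and *Cox6a1* (right) against the mean of the 13 skeletal muscle genes, with 1 point per BXD strain, a diamond for C57BL/6J and a square for DBA/2J, on vertical axes of equal span. *Cox6a2* rises from a lowest value of 9.771 to a highest of 12.970 with the muscle list, while *Cox6a1* stays between 15.5 and 15.9.

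Of the other pairs, *Cox4i1*, the common form of subunit IV, ranged by 0.677, and *Cox4i2*, a form known from lung and from low oxygen, by 0.637. *Cox6b1* ranged by 0.541 and *Cox6b2*, a testis form, by 1.27, from 8.02 in BXD87 to 9.29 in BXD49. *Cox7b* ranged by 0.583 and *Cox8a* by 0.386. Their partners *Cox7b2* and *Cox8c* were above background in 0 of 35 strains, so their ranges, 0.573 and 0.787, lie wholly within the background. *Ndufa4* ranged by 0.624 and *Ndufa4l2*, a relative known to be induced by low oxygen, by 0.907. Slopes against the muscle list were below 0 for 68 of 86 members, against 53.0% of all transcripts, with a median of -0.03 units per SD.

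*Cox7c* had the largest range after *Cox6a2* and the largest difference between the parents. It encodes a small membrane subunit of complex IV. It read 8.221 in BXD66, 9.548 at the median and 10.041 in BXD95, with 9.769 in C57BL/6J and 8.493 in DBA/2J. There were 9 strains from 8.221 to 9.015 and 26 from 9.298 to 10.041, so that the parents lie on opposite sides of the step between them. In many other members the parents also lay on opposite sides of the middle of the widest step, so this alone does not set *Cox7c* apart. The step of 0.28 units was 15.5% of the range. A member was counted as two-mode where the widest step with at least 7 strains on each side took at least 20% of the range and 0.2 units. By that rule 0 members were two-mode, against 0.386% of all transcripts, or 159, of which 139 had the parents on opposite sides. With the share lowered to 15%, just under its own 15.5%, *Cox7c* was the only member called. *Sdha* (19.3%) and *Ndufa7* (17.6%) had larger shares, but their steps, 0.059 and 0.088 units, were under 0.2 units. The share of all transcripts called at 15% is not given here.

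The 5 named transcripts most like *Cox7c*, looked up after its values were seen, were *1110018J18Rik* (r = 0.72), *Papd4* (0.72), *Glrx* (-0.69), *Mterfd1* (0.66) and *Trim33* (0.64), over 35 strains. The first 4 lie on chromosome 13, as *Cox7c* does, at 127, 24, 24 and 99 protein-coding genes from it in RefSeq order, and *Trim33* lies on chromosome 3. In the 8 protein-coding genes to each side of *Cox7c*, r ran from -0.42 for *Ccnh* to 0.49 for *Rasa1*. The strain genotypes were not analysed here, and whether a stretch of this chromosome moves with *Cox7c* was not tested. Regressing out muscle, which had r = -0.30 (rho = -0.49) with *Cox7c*, was one of the alternatives and left the count of two-mode members at 0.

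The promoter of *Cox7c* is shown as that of the member whose level differed most between the parents. The 250 bases before its RefSeq start in GRCm38.p6, chr13:86046796-86047045 (minus strand), read in the direction of the gene, hold none of the 4 motifs searched (given with the promoters of other members).
Cox7c: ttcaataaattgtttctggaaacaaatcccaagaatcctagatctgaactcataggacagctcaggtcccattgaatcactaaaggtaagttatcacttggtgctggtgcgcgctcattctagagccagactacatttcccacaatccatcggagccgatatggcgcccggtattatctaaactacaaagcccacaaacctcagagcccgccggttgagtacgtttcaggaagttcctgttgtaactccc

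*Cox7a2l*, which helps join complexes III and IV into supercomplexes and for which C57BL/6J is known to carry a short form of the protein, was not among the variable members. It read 9.731 in BXD79, 10.049 at the median and 10.305 in BXD83, with 10.146 in C57BL/6J and 9.946 in DBA/2J. Its range of 0.574 lay below the median of the members, and its widest step was 0.04 units, 7.32% of the range. Both parents therefore lie inside the span of the strains. They also lie on opposite sides of the middle of that step, which runs from 10.116 to 10.158. The transcripts most like it were *Coq6* (r = 0.74), *Mif4gd* (0.73), *Urgcp* (0.69), *Arhgap9* (-0.67) and *Calr* (-0.66), none of which lies on its chromosome, 17. Among its 16 measured neighbours, r lay between -0.46 and 0.39. Its relative *Cox7a2* ranged by 0.522. A probe set over the whole transcript sums its exons, and a change in length or splicing can pass unseen in it.

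Between the parents, the members were mostly lower in DBA/2J. Of 86 members, 74 were lower in DBA/2J, 11 were higher and *Uqcr10* was equal, with a median difference of -0.16 units, whereas 48.1% of all transcripts were lower. A difference of at least 0.5 units was found for 5 members, all lower in DBA/2J (6.96% of all transcripts were lower and 6.00% higher by as much). These were *Cox7c* (-1.28), *Cox6a2* (-0.64), *Atp5j2* (-0.61, under the background), *Ndufa2* (-0.58) and *Ndufb11* (-0.50). The largest differences the other way were *Cox7b2* (0.41) and *Cox8c* (0.20), both under the background, and *Atp5s* (0.13).

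Set against the BXD strains, C57BL/6J stood at or near the top in 4 of the 5 complexes, and DBA/2J from the middle to the lower part. The mean of complex I in C57BL/6J (0.15) lay above all 35 BXD strains, that of complex III (0.13) and that of complex V (0.13) each above 34, that of complex IV without its isoforms (0.11) above 31, and that of complex II (0.06) above 26. In DBA/2J the mean of complex I (-0.05) lay above 6 of 35, that of complex III (0.00) above 18, that of complex V (-0.05) above 9, that of complex IV without its isoforms (-0.13) above 3 and that of complex II (-0.04) above 10. In 7 members C57BL/6J was above every BXD strain: *Ndufa7*, *Ndufa11*, *Ndufab1*, *Uqcrq*, *Uqcr11*, *Atp5e* and *Atp5l*. Of the members, 1, *Atp5g2*, was lower in DBA/2J than in every BXD strain. Among transcripts above background, 3.61% were higher in C57BL/6J than in all BXD strains and 4.40% lower, and 0.84% were higher in DBA/2J and 1.16% lower. The liver list was raised in DBA/2J, at 10.4 against 7.15 in C57BL/6J. In BXD70, where that list was higher still (12.5), the mean of complex I was -0.02, above 9 of the other 34 strains, that of complex II was -0.07, above 7, that of complex III was 0.03, above 21, that of complex IV without its restricted isoforms was 0.03, above 19, and that of complex V was -0.08, above 3. With 1 array per parent, the part of tissue makeup in the parental difference was not tested.

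The members rose most often with the mitochondrial ribosome, whose nuclear-encoded proteins help translate the mitochondrial transcripts. Its list held the 76 genes whose symbols start with *Mrpl* or *Mrps* and a digit. Against the mean of that list, 16 of 86 members were called higher and 0 lower (limma, adjusted p under 0.05 over 41057 transcripts), where 2.64% of all transcripts were called higher and 1.39% lower. Slopes were positive for 80 members, and for 49.0% of all transcripts. By class, 8 of 37 members of complex I, 3 of 4 assembly factors, 1 of 4 members of complex II, 3 of 8 of complex III, 0 of 15 of complex IV and 1 of 17 of complex V were called. The difference between classes was not tested.

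The largest slopes were those of *Ndufaf1*, at 0.20 ± 0.04 units per SD of the list mean (SE, adjusted p = 0.00184), *Ndufaf4*, at 0.15 ± 0.03 (adjusted p = 0.00328), and *Ndufab1*, at 0.14 ± 0.02 (adjusted p = 1.57e-05), each with n = 35 strains in limma. *Ndufaf1* and *Ndufaf4* act in building complex I and are not part of the finished enzyme. *Ndufab1* is the mitochondrial acyl carrier protein, which also serves lipoic acid synthesis. *Ndufaf1* read 9.97 in BXD62, 10.6 at the median and 11.4 in BXD95, and *Ndufab1* read 9.62 in BXD79, 9.93 at the median and 10.2 in BXD87. BXD62 was also the lowest strain of the ribosome list and BXD87 its highest, and the list itself spanned only 0.334 units. The other members called were *Ndufs8*, *Sdhd*, *Ndufv3*, *Uqcr10*, *Uqcrfs1*, *Ndufc1*, *Ndufaf3*, *Atp5sl*, *Ndufs6*, *Ndufb8*, *Ndufb5*, *Uqcrh* and *Ndufa8*, with slopes from 0.07 to 0.12. The count was 29 with the arrays centred on the median and 25 with only transcripts above background tested. The shares of all transcripts called under these settings are not given here, so the counts have no background beside them.

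Other genes of the pathway showed the same direction. Of 29 listed genes for electron carriers, isoforms and assembly factors, 24 were measured, and 15 of these were called higher with the ribosome list and 0 lower. They included *Bcs1l*, which inserts the Rieske protein into complex III (0.15 ± 0.02, adjusted p = 1.62e-04), *Cox15*, needed for the haem of complex IV (0.13 ± 0.02, adjusted p = 2.64e-04), and *Ecsit*, an assembly factor of complex I (0.13 ± 0.02, adjusted p = 1.09e-04). Cytochrome c (*Cycs*) and the isoforms *Cox7a1* and *Cox8b*, which the member rule left out, were not called against any of the 5 measures. With the muscle list, limma called *Cyc1* (-0.06 ± 0.02, adjusted p = 0.0418) and *Sdhaf1* (-0.09 ± 0.02, adjusted p = 0.0378) lower. With the white fat list, it called *Tmem126b* lower (-0.11 ± 0.03, adjusted p = 0.0200). Among 11 regulators, *Tfb2m* (0.17 ± 0.04, adjusted p = 0.00813) and *Polrmt* (0.08 ± 0.02, adjusted p = 0.0196), both of mitochondrial transcription, were called higher with the ribosome list. *Tfb2m* was also called lower with the white fat list (-0.17 ± 0.04, limma, adjusted p = 0.0106). Of the 11 transcripts of the mitochondrial genome, limma called 0.

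**Figure D4:**
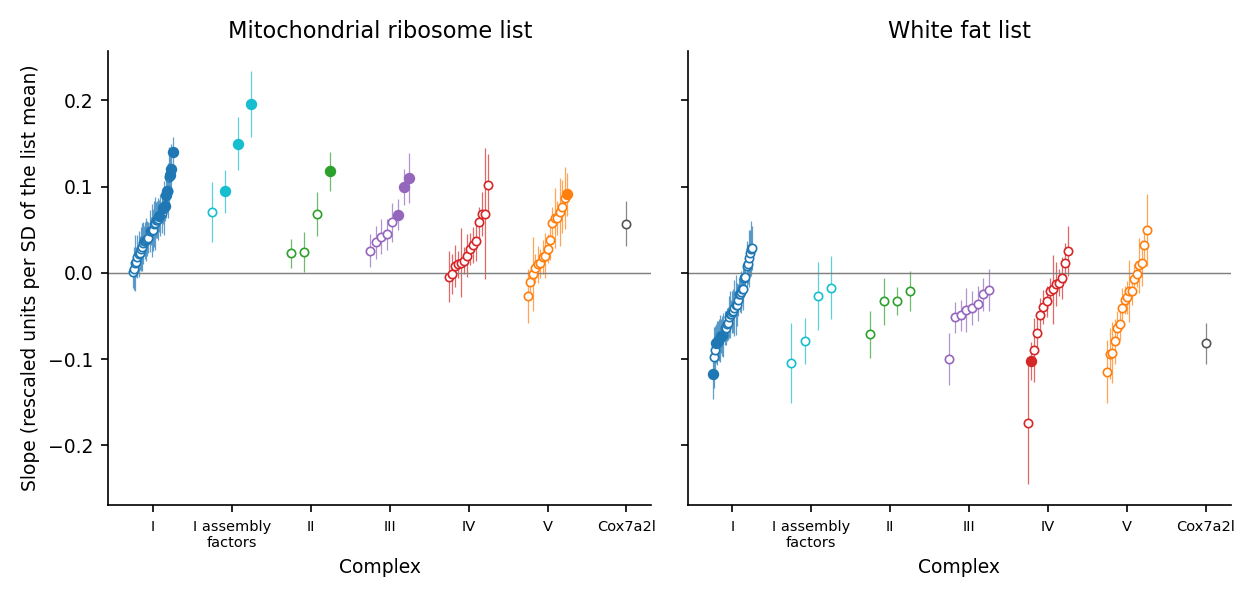
Slope of each member (rescaled units per SD of the list mean, bars of 1 SE) against the mitochondrial ribosome list (left) and the white fat list (right), by complex, with filled points for members called by limma and open points for the rest. *Cox6a2* is left out of both panels because its error bar exceeds the axis. On the left, 16 points are filled and all lie above 0, and on the right 5 are filled and all lie below 0.

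With the white fat list, the members went the other way. There 5 of 86 members were called lower and 0 higher, where 1.85% of all transcripts were called lower and 0.977% higher, and slopes were below 0 for 73 members against 48.0% of all transcripts. They were *Ndufs8* (-0.12 ± 0.03, adjusted p = 0.0225), *Cox6b1* (-0.10 ± 0.02, adjusted p = 0.00802), *Ndufs4* (-0.08 ± 0.02, adjusted p = 0.0421), *Ndufa7* and *Ndufb9*, by limma with SE over 35 strains. *Cox6b1* read 13.434 in BXD69, 13.787 at the median and 13.975 in BXD75. The count rests on few strains: it was 1 without BXD61, which has the highest white fat list, and 12 without BXD43. It was 23, of which 22 were lower, where only transcripts above background were tested. The share of all transcripts called in that setting is not given here. The white fat and muscle lists themselves had r = 0.44 (rho = 0.45) over the strains, and the ribosome list had r = -0.52 (rho = -0.54) with the white fat list. Which of these lists a member follows was therefore not separated.

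*Ppargc1a*, a coactivator of mitochondrial biogenesis, and *Esrra*, a nuclear receptor it works with, called no member. A count of 0 does not show that slopes are absent. In simulated data with the muscle list as covariate, limma called 1% of transcripts given a slope of 0.5 SD per SD. For *Ppargc1a*, which read 11.5 in BXD79, 12.1 at the median and 13.3 in BXD70, limma called 0 of 86 members after adjustment. In limma 10 members had an unadjusted p under 0.05. That share lay slightly above the share of all transcripts tested and below that of transcripts above background. Of all transcripts 0.17% were called higher and 0.0656% lower. For *Esrra*, from 10.1 to 10.7, limma also called 0 of 86, where 0.0923% of all transcripts were called higher and 0.0316% lower. Here 10 of 86 members had an unadjusted p under 0.05, as did 4464 of all 41154 transcripts tested. Slopes with *Esrra* were positive for 72 of 86 members and for 54.3% of all transcripts, and with *Ppargc1a* for 59 of 86 and for 51.0%. *Ndufaf4* had the smallest unadjusted p with *Esrra*, at a slope of 0.12 ± 0.03 (limma, adjusted p = 0.132 over 35 strains). Of the other pathway genes, *Cox15* was called higher with *Esrra* (0.12 ± 0.02, adjusted p = 0.0233, limma). Protein levels were not measured.

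Promoters were set beside these values for the 71 members with a RefSeq entry, in windows of 250 bases before to 50 after the start. Matches on either strand were counted for NRF1 (GCGCATGC), ERR (TCAAGGTCA), ETS (CCGGAAGT) and YY1 (AAGATGGC), 4 motifs of which none contains another. The NRF1 letters were found in 11 members (15.5%) and in 3.05% of all promoters, and the YY1 letters also in 11 members (15.5%) and in 3.19% of all. The ETS letters were in 5 members (7.04% against 4.31%), and the ERR letters in 2, *Atp5g3* and *Sdhd* (2.82% against 0.466%). At least 1 of the 4 was in 28 members (39.4%) and in 10.4% of all promoters. Of the 16 members called against the ribosome list, 8 had a match. A match is a run of letters and not a measured site. Members for which no entry was matched include *Atp5a1*, *Cox4i1*, *Cox4i2*, *Cox6a2*, *Cox6c*, *Cox8c*, *Ndufa2*, *Ndufa4l2*, *Ndufb9*, *Ndufs1*, *Sdhc*, *Uqcrb*, *Uqcrc2* and *Uqcrq*.

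One promoter is shown for each of 3 motifs, as the 250 bases before the start in GRCm38.p6, in the direction of the gene, with the motif in capitals. *Ndufaf4*, at chr4:24897833-24898082 (plus strand), holds the NRF1 letters on both strands, overlapping, 113 bases before the start. *Uqcrh*, at chr4:116075071-116075320 (minus strand), holds the ETS letters 11 bases before it, on the opposite strand. *Atp5g3*, at chr2:73911327-73911576 (minus strand), holds the ERR letters 52 bases before it, also on the opposite strand. The first and the second were called against the ribosome list and *Atp5g3* was not.
Ndufaf4: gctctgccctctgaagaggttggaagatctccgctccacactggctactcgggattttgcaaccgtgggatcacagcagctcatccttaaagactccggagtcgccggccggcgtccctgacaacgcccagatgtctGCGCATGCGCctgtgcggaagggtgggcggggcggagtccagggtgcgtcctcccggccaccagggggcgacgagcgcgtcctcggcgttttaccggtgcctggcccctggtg
Uqcrh: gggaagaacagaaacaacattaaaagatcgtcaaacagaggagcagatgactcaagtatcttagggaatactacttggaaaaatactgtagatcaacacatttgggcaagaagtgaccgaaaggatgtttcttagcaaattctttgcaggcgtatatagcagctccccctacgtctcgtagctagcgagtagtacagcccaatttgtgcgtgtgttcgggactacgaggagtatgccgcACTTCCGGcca
Atp5g3: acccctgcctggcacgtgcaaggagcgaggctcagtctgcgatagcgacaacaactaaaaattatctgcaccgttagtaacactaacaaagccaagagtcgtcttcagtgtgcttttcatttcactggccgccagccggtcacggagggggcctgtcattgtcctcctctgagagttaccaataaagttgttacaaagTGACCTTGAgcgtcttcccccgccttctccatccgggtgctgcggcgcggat

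The choice of probe set mattered for some members. Of the 86 members, 12 have 2 probe sets. In 7 of these, *Atp5g2*, *Atp5h*, *Cox6c*, *Cox7b*, *Ndufa11*, *Ndufs6* and *Uqcrb*, the brightest probe set is listed among genes of another chromosome than the gene's own, by the 15 probe sets to each side in the table, while the other is listed among genes of its own. Signal of near-identical copies cannot be told apart here, and values of these 7 genes are uncertain. *Atp5h* is the clearest case. Its brightest probe set lay between 13.698 and 14.037 with a parental difference of -0.19, and the one listed on its own chromosome, 11, lay between 7.921 and 9.305, with 9.123 in C57BL/6J and 7.900 in DBA/2J, a difference of -1.22. Over 35 strains, r between the 2 probe sets was 0.40. For *Uqcrb*, the ranges were 0.431 and 1.15, and for *Cox7b* they were 0.583 and 0.916, with r = 0.21 and -0.08 between the probe sets. For *Atp5g2* and *Ndufs6* the probe sets moved alike (r = 0.83 and 0.81). With the probe set on the gene's own chromosome, a choice made after the data were seen, 9 members had a range of at least 1 unit in place of 6, and 6 had a parental difference of at least 0.5 units in place of 5.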

How the data were processed

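Values for 41345 probe sets on 37 arrays were deposited as scores, each array having been rescaled by the authors to a mean of 8 and an SD of 2. The labels name Affymetrix Expression Console, and the log base, summary method and build are not given in the sources used here. The 190 array controls were left out, which leaves 41155 transcripts. The deposited scores were used as they are. Arrays have no read depth, and their number limits the precision.

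Covariates were scaled to an SD of 1 and tested with limma 3.58.1 in R 4.3.3 (lmFit and eBayes) over the 35 BXD strains, leaving out the transcripts that make up the covariate, with Benjamini-Hochberg adjustment over all transcripts tested. The design had assumed log2 values. The limma step and the two-mode rule were tested on simulated data. Of 200 simulated transcripts with a slope on the muscle list, limma called 100% at 1.5 SD per SD and 1% at 0.5. False calls numbered 15 and 0 of 41155 transcripts. Ranges, steps, means and correlations were computed in Python 3.11.15 with numpy 2.4.6, scipy 1.17.1 and pandas 2.3.3. Named genes are the 5 largest and smallest ranges, the 3 largest slopes and parental differences each way, the isoform pairs, the complex II genes, the complex I core, the genes most like *Cox7a2l* and the pathway lists. The members and lists were chosen with earlier results of these data known. RefSeq (GRCm38.p6) gave current symbols, gene order and promoters. Alternatives were other scalings, filters, covariates, probe sets and each strain left out. Genotypes and other tissues were not analysed here. Counts and means cover all members, and 1 member is not reported here by itself.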

Additional observations from a re-analysis of the deposited data

How the results depend on the processing

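The count of 16 calls against the ribosome list was 29 with arrays centred on the median and 25 with only transcripts above background tested, and it lay between 12 and 19 with each strain left out. The count of 5 against the white fat list was 12 with centred arrays, 23 with only transcripts above background, 9 with ranks of the covariate, 3 with both parents included, 3 with the muscle list as a covariate and 1 with the first principal component as a covariate. Leaving out each strain in turn gave between 1 and 12: 1 without BXD61, 2 without BXD66, BXD69, BXD89 or BXD97, 3 without BXD64, BXD80, BXD81, BXD90, BXD95 or BXD101, 8 without BXD56, 10 without BXD87 and 12 without BXD43. Against the muscle list the count of 1 became 2 with only transcripts above background, with ranks, with the first principal component and, among strains left out, without BXD85 (range 1 to 2). Against *Esrra* the count of 0 became 1, *Ndufaf4*, with both parents included and without BXD95 (range 0 to 1). The count of ranges of at least 1 unit was 2 instead of 6 without the highest and lowest strain of each gene. The count of two-mode members was 1 instead of 0 with a step of 15% of the range. Shares of all transcripts under these alternatives are not given here, so none of these counts has a background beside it. The r of complexes I and IV was 0.65 instead of 0.40 once the muscle list was regressed out, and 0.76 without the isoforms, the latter chosen after the data were seen. The 7 slopes run under the alternatives were those of *Cox6a2* against the muscle list, *Ndufaf1*, *Ndufaf4* and *Ndufab1* against the ribosome list, and *Ndufs8*, *Cox6b1* and *Ndufs4* against the white fat list. None of these 7 changed sign, and the calls lost, 7 under other settings and 14 with a strain left out, were of the last 3. The array background limits *Cox7b2*, *Cox8c*, *Atp5j2*, *Cox5b* and *Atp5g1*. No paired analysis was run, since each BXD strain and each parent has 1 array and the labels used here give no pairs.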
